A study of Mus musculus with 6 samples.

Results

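The genes described here are 10 long non-coding RNAs (lncRNAs), of 52249 genes in the deposited count table, chosen by symbol. Malat1, Neat1 and Kcnq1ot1 are RNAs that stay in the nucleus, and Gas5, Snhg1, Snhg3, Snhg6, Snhg8, Snhg12 and Epb41l4aos are host genes of small nucleolar RNAs (snoRNAs). Each symbol matched exactly 1 row, and all 10 passed the filter on low counts. They were measured in 6 libraries of mouse intestinal organoids, epithelial cultures grown from the gut. All libraries carried an Apc knockout, so the control carried it too; Apc is the tumour suppressor that restrains WNT signalling. Of these, 3 were Apc-knockout only (control) and 3 were labelled Apc-knockout with IGF2BP3 overexpression (OE-labelled). IGF2BP3 is an RNA-binding protein that reads m6A-modified RNA and stabilises its targets. The construct and promoter behind the overexpression, the Cre driver, animal age and number of clones are not given in the sources used here, nor is it said that replicates came from separate cultures, so the p-values measure only the spread between these libraries.

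Libraries were 3′ mRNA sequencing libraries, primed with oligo(dT), and counts were not divided by transcript length. Totals ran from 2180116 to 2519917 counts, and levels are given in the usual CPM unit, the count relative to the TMM-scaled library total. The floor of 3 counts lay between 1.18 and 1.41 CPM. Igf2bp3 had 0 or 1 count in every library of both groups, so these counts hold no check of the label; higher and lower refer to libraries by their labels. The library names give each group a series of its own, so library series and group cannot be told apart. Epithelial markers were present (8 of 8 tested, summed level 3955 to 4181 CPM in controls, 5338 to 6035 CPM in OE-labelled libraries), and 4 of them, Krt8, Krt18, Krt19 and Vil1, were called higher. Of 6 fibroblast markers 4 were at 0 in every library, and their summed level stayed at or below 1.41 CPM. Of 5 immune markers 3 were at 0, and Cd68, a macrophage marker, was at 13.6 to 20.3 CPM over the 6 libraries and did not pass (log2 fold change 0.17, edgeR adjusted p = 0.575). Of 4 neuron and glia markers, Elavl4 was at 0 and S100b rose from 51.2, 46.9 and 47.5 CPM to 111, 116.4 and 94.3 CPM (log2 fold change 1.14, SE 0.13, edgeR adjusted p = 0.000129), so that the summed level was 49.3 to 53.5 CPM in controls and 100.2 to 118.8 CPM in OE-labelled libraries; its part in the results was not tested. In bulk libraries, fewer cells of a type and less RNA per cell cannot be told apart.

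Malat1 lies in nuclear speckles, bodies rich in splicing factors. Neat1 is the scaffold of paraspeckles, and Kcnq1ot1 is a very long transcript, antisense to Kcnq1, that silences neighbouring imprinted genes on its own chromosome copy. The snoRNA host genes are transcribed and spliced like other genes, their snoRNAs are cut out of introns, and the remaining spliced RNA is often short-lived; several, Gas5 above all, are known substrates of nonsense-mediated decay and begin with the pyrimidine stretch typical of messages whose translation follows growth signals.

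Sequences are shown first for the 3′ ends, because the method counts an RNA only where oligo(dT) can prime. The ends of Malat1 and of the long form of Neat1 are not polyadenylated: they are cut by RNase P, and a triple helix built from U-rich stretches and an A-rich tract protects them. The short form of Neat1 is polyadenylated in the usual way. The stretches below are from GENCODE M21 transcripts (GRCm38, minus strand of chromosome 19), 5′ to 3′, at chr19:5795982-5796081 for Malat1, chr19:5824708-5824807 for the long form of Neat1 and chr19:5842307-5842366 for the short form. Capitals mark the 11 bases that Malat1 shares with the annotated end of long Neat1, and in the short form the AATAAA hexamer.
Malat1: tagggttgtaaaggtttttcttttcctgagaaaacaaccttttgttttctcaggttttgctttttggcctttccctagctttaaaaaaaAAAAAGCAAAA
Neat1 long form: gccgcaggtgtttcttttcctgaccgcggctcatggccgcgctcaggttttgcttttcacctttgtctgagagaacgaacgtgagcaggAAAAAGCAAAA
Neat1 short form: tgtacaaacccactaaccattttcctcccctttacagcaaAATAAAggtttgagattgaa
The 11-base stretch was found in the longest transcript of 1.21% of 10549 tested genes. In Malat1 it follows directly on further A, making a run of 12 A, and lies 292 bases before the end of the annotated transcript, while in long Neat1 it is the annotated end. Encoded runs of at least 12 A, which oligo(dT) can also prime, were present in Malat1, Snhg12 and Kcnq1ot1 (8 such runs, the longest of 41 A) and in 12.1% of the tested genes. The counts do not say which of these ends a read came from, so the long and short forms of Neat1 are not separated.

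The start sites are shown because the pyrimidine stretch of such host genes can be read in them. Windows run from 30 bases before to 30 bases from the start in the RefSeq promoter table (GRCm38.p6), which matched 7 of the 10 genes. Capitals mark the unbroken run of C or T that covers the start base. Positions are chr1:161035136-161035195 for Gas5, chr3:123508307-123508366 for Snhg8, chr4:132308648-132308707 for Snhg12, chr19:8723457-8723516 for Snhg1 and chr19:5802643-5802702 for Malat1; for Snhg6 the first 30 bases of a GENCODE transcript, Snhg6-203, are shown.
Gas5: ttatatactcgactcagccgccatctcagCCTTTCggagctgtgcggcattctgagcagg
Snhg8: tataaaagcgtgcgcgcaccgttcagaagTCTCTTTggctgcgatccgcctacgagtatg
Snhg12: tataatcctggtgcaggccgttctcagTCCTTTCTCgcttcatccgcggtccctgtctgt
Snhg1: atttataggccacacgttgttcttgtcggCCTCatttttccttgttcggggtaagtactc
Snhg6: CTTTCTCggcagcgccgtagagcgcgagca
Malat1: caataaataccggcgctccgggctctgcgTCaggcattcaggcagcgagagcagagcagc
A run of at least 6 pyrimidines covered the start in Gas5, Snhg8 and Snhg12 (6, 7 and 9 bases) and in 7.25% of 32851 mouse promoters. Snhg6-203 began with 7 pyrimidines. The run was 4 bases in Snhg1, 2 in Malat1 and 0 in Snhg3, Kcnq1ot1 and a second annotated start of Gas5. On both strands of the 300-base windows, the E-box CACGTG, which MYC binds, was found in 0 of these 7 genes and in 7.15% of all promoters. TCTTTC was found in 0 (22.1% of all) and CTTTCC, which can overlap it, in 3 (26.6% of all).

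Comparing OE-labelled with control libraries, the question the design poses, 2 of the 10 genes passed the test: Malat1 was lower and Snhg3 higher. The test was edgeR's quasi-likelihood test with Benjamini-Hochberg adjustment over all tested genes, at an adjusted p below 0.05. Over all 10687 tested genes 29.2% were called, 16.5% higher and 12.7% lower, so the share among the 10 was near the background. Among the 287 tested lncRNA genes 19.2% were called, 8.01% higher and 11.1% lower. The fold change estimate was below 0 for 7 of the 10 genes, with a median of -0.30 on the log2 scale, against 0.04 over all tested genes and -0.04 over tested lncRNAs. Control and OE-labelled CPM were fully separated for 4 genes (Snhg3 higher; Malat1, Neat1 and Gas5 lower), against 45.7% of all tested genes.

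**Figure D1:**
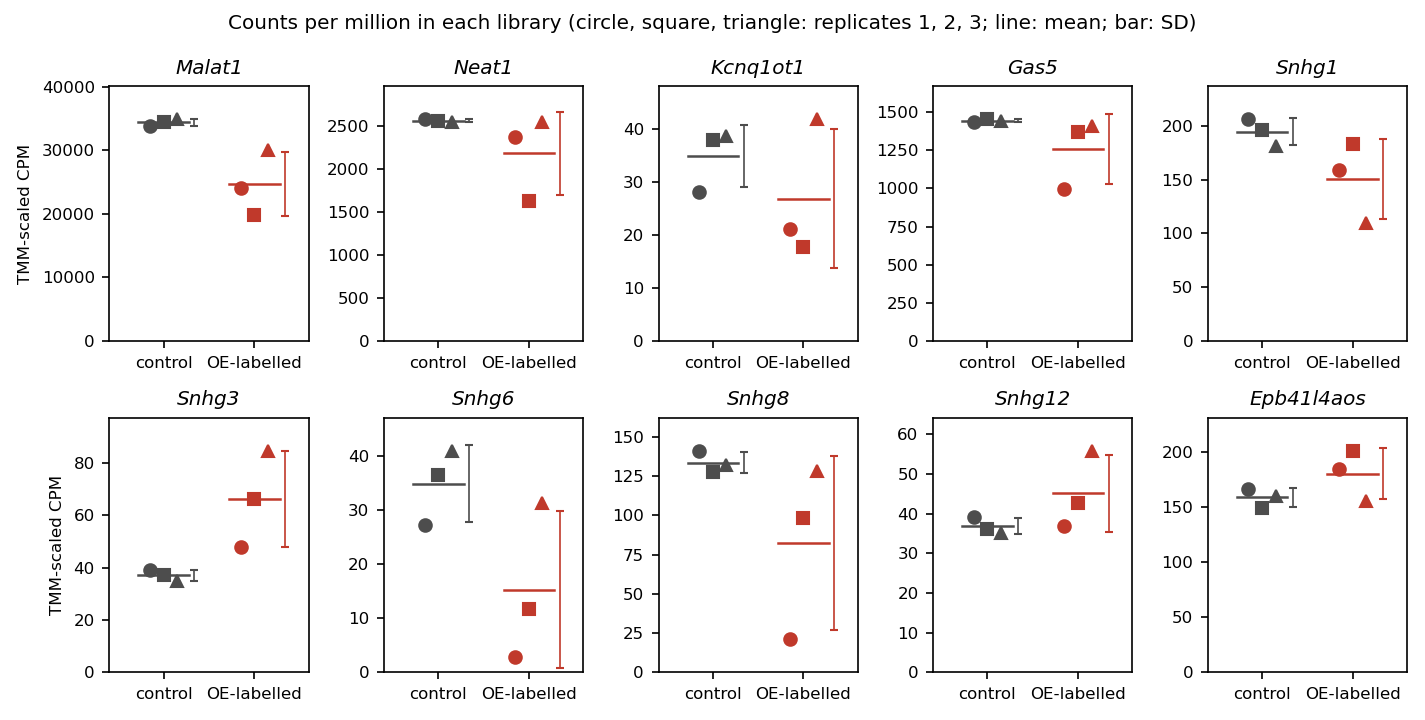
TMM-scaled CPM (y axes, from 0) of the 10 genes in the 3 control (grey) and 3 OE-labelled (red) libraries, with mean line and SD bar. Control libraries lie close together for most genes, whereas OE-labelled libraries are spread out; only Malat1 and Snhg3 passed the test.

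Malat1, on the minus strand of chromosome 19 (5795690 to 5802672, GRCm38), was the third most abundant tested gene. It was counted at 33870, 34360 and 34860 CPM in control replicates 1, 2 and 3, and at 24100, 19880 and 30020 CPM in the OE-labelled ones. Every OE-labelled library lay below every control library, and replicate 2 was the lowest. The log2 fold change was -0.48 (SE 0.12, 95% confidence interval -0.74 to -0.22, edgeR adjusted p = 0.0114). Malat1 took 3.36% of all counts in the control group and 2.495% in the OE-labelled group. Its exonic GC content is 41%, and with an offset for GC content per library the change was -0.19 (edgeR adjusted p = 0.239). Without control replicate 2 or control replicate 3 the adjusted p was 0.0534 and 0.0581 at nearly the same estimate.

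Neat1 (minus strand of chromosome 19, 5824708 to 5845478) was counted at 2581, 2556 and 2554 CPM in the control group, and at 2370, 1634 and 2544 CPM in the OE-labelled group. The OE-labelled values all lay under the control range, but replicate 3 lay only narrowly under the lowest control, by less than the control SD of 15.1 CPM. The difference did not pass the test (log2 fold change -0.23, SE 0.14, 95% confidence interval -0.53 to 0.06, edgeR adjusted p = 0.218). It passed without OE-labelled replicate 1 (-0.35, edgeR adjusted p = 0.0244) or without replicate 3 (-0.35, edgeR adjusted p = 0.0391).

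Kcnq1ot1 (minus strand of chromosome 7, 143203458 to 143296549), which lies inside Kcnq1 on the opposite strand, was counted at 28.1, 38 and 38.7 CPM in the control group, and at 21.1, 17.7 and 41.9 CPM in the OE-labelled group. The groups overlapped, since OE-labelled replicate 3 was the highest of all 6. The estimate was -0.39 (SE 0.27, 95% confidence interval -0.98 to 0.21, edgeR adjusted p = 0.311), and without OE-labelled replicate 3 it was -0.85 (edgeR adjusted p = 0.00803), while with the GC offset it was -0.09 (edgeR adjusted p = 0.817). As no source says whether strand was used in counting, reads of Kcnq1 and Kcnq1ot1 may not be fully separated.

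Snhg3 was the host gene that rose. It harbours Snora73a and Snora73b, box H/ACA snoRNAs also known as U17, and lies on the minus strand of chromosome 4 (132348014 to 132353686). Its level was counted at 39.2, 37.1 and 35 CPM in the control group, and at 47.8, 66.1 and 84.6 CPM in the OE-labelled group, with no overlap and OE-labelled replicate 3 the highest. The log2 fold change was 0.83 (SE 0.19, 95% confidence interval 0.42 to 1.24, edgeR adjusted p = 0.00656). This call and its direction were kept in all 20 alternatives run (0.62 to 1.11). Snhg3 overlaps Rcc1, a regulator of the Ran GTPase, on the same strand, so reads of the pair are uncertain, although both held whole counts in every library. Rcc1 rose too (log2 fold change 0.75, SE 0.19, edgeR adjusted p = 0.0121), from a mean of 19.8 CPM to 33.25 CPM. The Rcc1 call ended under the offset for GC content (0.56, edgeR adjusted p = 0.0525) and without control replicate 1 (0.60, edgeR adjusted p = 0.0673).

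Snhg6, host of Snord87 (minus strand of chromosome 1, 9941959 to 9944118), and Snhg8, host of Snora24 (minus strand of chromosome 3, 123507552 to 123508404), had the widest spread of the 10 genes. Snhg6 was counted at 27.2, 36.6 and 41 CPM in the control group, and at 2.84, 11.8 and 31.3 CPM in the OE-labelled group. OE-labelled replicate 1 rested on 7 counts (95% Poisson interval 2.81 to 14.4, counting error only) against 59 to 89 in the control group, while replicate 3 (74 counts) was within the control range. The estimate of -1.20 (SE 0.47, 95% confidence interval -2.21 to -0.19) did not pass after adjustment (edgeR adjusted p = 0.0706). It was -0.77 without OE-labelled replicate 1 (edgeR adjusted p = 0.0363) and -2.23 without replicate 3 (edgeR adjusted p = 0.000794), so single libraries decide its size and its call.

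Snhg8 was counted at 141, 127.6 and 131.8 CPM in the control group, and at 21.1, 98.3 and 128.1 CPM in the OE-labelled group. Replicate 1 was again the low library, with 52 counts against 272 to 306 in control, and replicate 3 was within the control range. The log2 fold change was -0.70 (SE 0.39, 95% confidence interval -1.53 to 0.14, edgeR adjusted p = 0.195). Without OE-labelled replicate 1 the estimate was -0.30 (edgeR adjusted p = 0.0695), and without replicate 3 it was -1.15 (edgeR adjusted p = 0.0313).

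Gas5, the host of 10 annotated snoRNA genes (plus strand of chromosome 1, 161034422 to 161038539), was counted at 1433, 1454 and 1443 CPM in the control group, and at 994.4, 1371 and 1412 CPM in the OE-labelled group. All OE-labelled libraries were lower, replicate 1 by the most, but the difference did not pass (log2 fold change -0.20, SE 0.12, 95% confidence interval -0.46 to 0.07, edgeR adjusted p = 0.247). With the GC offset the sign turned (0.05, edgeR adjusted p = 0.767). Zbtb37, which overlaps Gas5 on the opposite strand, fell by 0.79 (SE 0.24, edgeR adjusted p = 0.0275), from a mean of 17.6 CPM to 10.2 CPM; its call was lost in 8 alternatives, among them the GC offset and the omission of any control library or of OE-labelled replicate 2 (adjusted p up to 0.11). Snhg1, a host of 8 annotated snoRNA genes (plus strand of chromosome 19, 8723475 to 8726443), was counted at 206, 196.1 and 181.3 CPM in the control group, and at 158.8, 183 and 109.7 CPM in the OE-labelled group. Replicates 1 and 3 lay below the control range and replicate 2 within it. The estimate of -0.37 (SE 0.16, 95% confidence interval -0.71 to -0.03) missed the threshold (edgeR adjusted p = 0.0979) and passed without OE-labelled replicate 1 (-0.46, edgeR adjusted p = 0.0223) or replicate 2 (-0.56, edgeR adjusted p = 0.0405). With the GC offset it was -0.07 (edgeR adjusted p = 0.808).

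Snhg12 and Epb41l4aos had estimates above 0. Snhg12, host of Snora44, Snora16a, Snora61 and Snord99 (plus strand of chromosome 4, 132308623 to 132311024), was counted at 39.2, 36.1 and 35.2 CPM in the control group, and at 36.9, 42.7 and 55.8 CPM in the OE-labelled group. Replicate 1 lay within the control range (log2 fold change 0.29, SE 0.17, 95% confidence interval -0.08 to 0.66, edgeR adjusted p = 0.223). Epb41l4aos, on chromosome 18, was counted at 166.8, 149.7 and 160.3 CPM in the control group, and at 184.3, 201.3 and 155.6 CPM in the OE-labelled group, with replicate 3 within the control range. Its estimate was 0.18 (SE 0.12, 95% confidence interval -0.08 to 0.44, edgeR adjusted p = 0.269), and -0.01 with the GC offset (edgeR adjusted p = 0.972). Epb41l4a, the coding gene it is named after, had means of 55.9 CPM (control) and 61.7 CPM (OE-labelled) (log2 fold change 0.14, SE 0.15, edgeR adjusted p = 0.516).

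**Figure D2:**
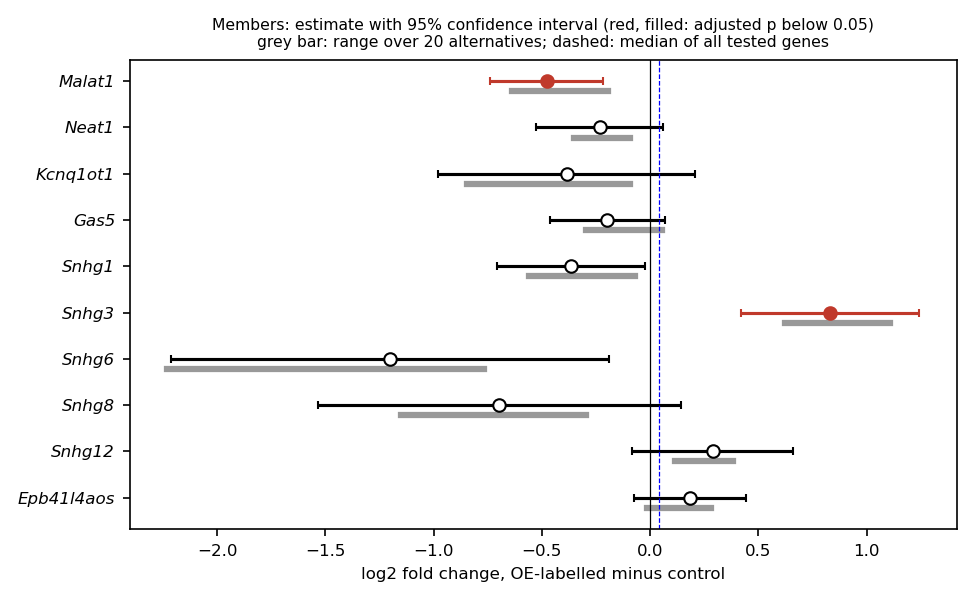
Log2 fold change of each gene (x axis, OE-labelled minus control) with its 95% confidence interval, the range over the 20 alternatives as a grey bar and the median of all tested genes (0.04) as a dashed line. The intervals of Malat1, Snhg1, Snhg3 and Snhg6 leave out 0, and Malat1 and Snhg3 passed after adjustment over all tested genes.

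The spread among OE-labelled libraries exceeded that among control libraries for all 10 genes. The coefficient of variation (CV, the SD as a percentage of the mean) had a median of 5.53% over the genes in control and 23.5% in OE-labelled libraries. Over all tested genes these medians were 10.5% and 15.9%, and over the 5254 genes whose average log2 CPM was 5 or more they were 6.90% and 12.6%. A wider spread in OE-labelled libraries was thus not particular to the 10 genes, and the share of all tested genes that had it was not counted. Among the 10 genes, the order within the OE-labelled group differed between the classes. Replicate 2 was the lowest for all 3 nuclear lncRNAs. Replicate 1 was the lowest for 5 of the 7 host genes and replicate 3 for the other 2, Snhg1 and Epb41l4aos. Relative to the control mean, replicate 2 held 57.85% of Malat1, 63.75% of Neat1 and 50.65% of Kcnq1ot1. Replicate 1 held 68.9% of Gas5, 15.8% of Snhg8 and 8.12% of Snhg6. This order was noticed after the values were seen and was not tested, and replicate numbers carry no order of their own. Other lncRNAs of these kinds did not keep to it. Of other host genes, Snhg17, Snhg18 and Snhg20 were lowest in replicate 2, Snhg9 in replicate 3, and Snhg15 and Zfas1 in replicate 1. Of other nuclear or imprinted lncRNAs, Airn and Ftx were lowest in replicate 1, Firre and Morrbid in replicate 2, and Jpx and Peg13 in replicate 3. The shares over all tested genes were not counted.

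**Figure D3:**
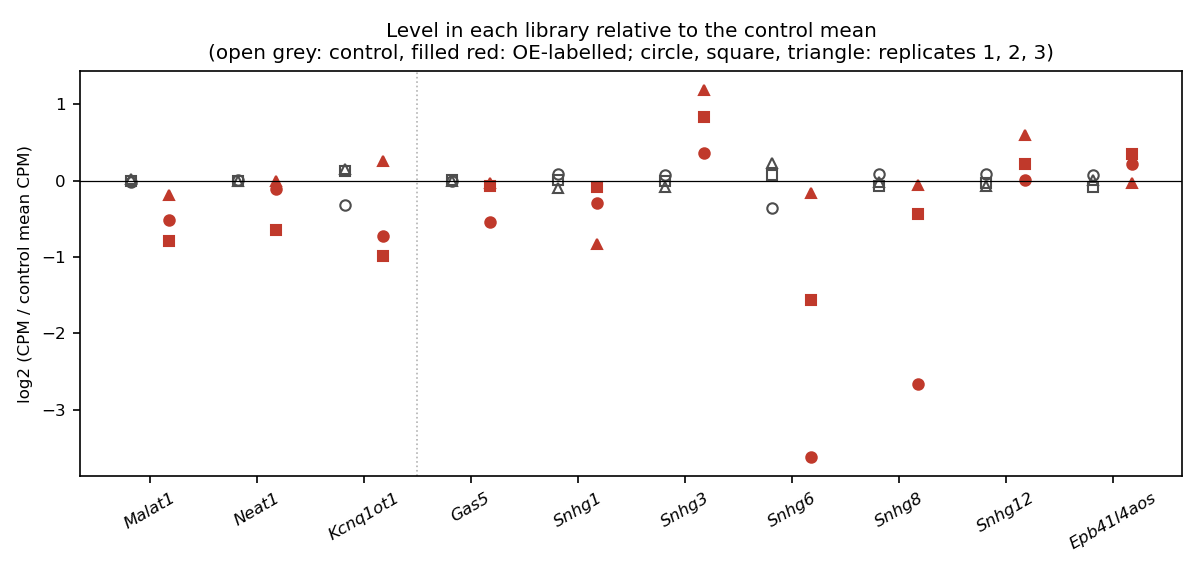
Level in each library relative to the control mean (y axis, log2), with control libraries as open and OE-labelled libraries as filled symbols, nuclear lncRNAs left of the dotted line and snoRNA host genes right of it. The OE-labelled square (replicate 2) is lowest for the 3 nuclear lncRNAs, and the circle (replicate 1) is far below the others for Snhg6 and Snhg8.

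As sums, the 10 genes came to 39000 ± 474 CPM in the control group (SD, n = 3), mostly Malat1, and to 28670 ± 5573 CPM (SD, n = 3) in the OE-labelled group. The 7 host genes together were counted at 2052, 2037 and 2028 CPM in the control group, and at 1446, 1974 and 1977 CPM in the OE-labelled group. The host sum was thus lower in every OE-labelled library, by the most in replicate 1. Most of it was Gas5 (a mean of 1443 CPM out of 2039 CPM in the control group), so the sum does not describe the host genes as a class. Snhg3, Snhg12 and Epb41l4aos had estimates above 0.

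The genes whose pattern over the 6 libraries was most like that of Malat1, out of 5253 genes whose average log2 CPM was 5 or more, were Nktr, Vldlr and Zfhx3 (Pearson r of log2 CPM 0.992, 0.99 and 0.989). Nktr was counted at 278.4, 273.5 and 283.8 CPM in the control group, and at 198.1, 153.4 and 228.7 CPM in the OE-labelled group, also lowest in replicate 2. For Gas5 they were Aldh18a1, Xpot and Itm2b (r 0.998, 0.997 and 0.997). Aldh18a1, an enzyme of proline synthesis, was counted at 43.3, 45.5 and 43.8 CPM in the control group, and at 13, 38.9 and 44 CPM in the OE-labelled group, lowest in replicate 1. Xpot, the exportin of tRNAs, was counted at 100.5, 102.3 and 101.8 CPM in the control group, and at 43.8, 90 and 90.5 CPM in the OE-labelled group. These likenesses describe 6 points that share libraries and groups.

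The snoRNA genes inside the hosts gave few reads; mature snoRNAs carry no poly(A) tail, and oligo(dT) is not made to prime them. Of 28 snoRNA genes within the 7 hosts on the same strand, 22 had 0 counts in every library after rounding, and only Snord87 passed the filter. Snord87, inside Snhg6, was counted 21, 21 and 16 times in the control group and 4, 0 and 2 times in the OE-labelled group. It passed the filter only through the control group and lay around the floor of 3 counts in the OE-labelled group, so no test of it is given. The 8 snoRNA genes inside Snhg1 summed to 27.5 counts over the control and 3 over the OE-labelled libraries. The 2 inside Snhg3 summed to 19 and 11 counts, although Snhg3 itself was higher, and the 10 inside Gas5 to 2.5 and 1. Some reads that fall on a host and on a snoRNA gene within it appear to have been divided between them. Gas5 held 3108.5 counts in control replicate 1, where the snoRNA genes within it held 0.5. Snhg1 held 393.5 in control replicate 3, where those within it held 9.5. The sources used here do not state the rule. Snhg6 and Snord87 themselves held whole counts in every library. The share of mitochondrial ribosomal RNA was 8.93% to 9.41% in control and 3.89% to 4.36% in OE-labelled libraries, and its part in these differences was not tested.

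Other snoRNA host genes and mostly cytoplasmic lncRNAs moved in both directions. Of 20 listed, 16 were tested, 2 were called higher and 3 lower (31.2% called), with a median of -0.07. The 16 include the coding gene Epb41l4a, which was not called. Snhg4 had a log2 fold change of -1.13 and so fell (SE 0.19, edgeR adjusted p = 0.0011), from 48.4, 46.4 and 43.5 CPM to 27.4, 17.7 and 17.8 CPM, though it overlaps 7 genes on its strand. Snhg17 (-0.55) and Tug1 (-0.55) also fell. Snhg18 rose by 1.02 (SE 0.19, edgeR adjusted p = 0.00182), from 15.2, 20.2 and 16.6 CPM to 40.1, 32.2 and 33 CPM, and Snhg20 by 0.46 (edgeR adjusted p = 0.0466). The Snhg20 call was lost in 13 of the 20 alternatives (adjusted p up to 0.274). Among these were the omission of any control library, of OE-labelled replicate 3, or of OE-labelled replicate 1 (log2 fold change 0.235, edgeR adjusted p = 0.195). The Tug1 call was lost in 9 (adjusted p up to 0.384), among them without any control library or OE-labelled replicate 2. With the GC offset the Tug1 estimate was -0.24. The Snhg17 call was lost in 5, among them without any control library (adjusted p up to 0.0679). Zfas1, the most abundant of them, was at 402.8, 378.6 and 382.9 CPM against 303.4, 396.4 and 421.9 CPM (log2 fold change -0.05, SE 0.12, edgeR adjusted p = 0.775). Like Gas5, it was lowest in OE-labelled replicate 1. Snhg17, Snhg18, Snhg20 and Tug1 were instead lowest in replicate 2, and Snhg9 in replicate 3. Among other nuclear or imprinted lncRNAs, 6 of 20 were tested, 1 was called higher, Peg13 (1.27, SE 0.34, edgeR adjusted p = 0.0148), and 0 lower, by edgeR, by DESeq2 and by limma-voom; Ftx, at an estimate of -0.75, had an unadjusted p of 0.0181. With DESeq2 size factors, or without mitochondrial genes and the abundant RNA CT010467.1, edgeR called 1 lower. The Peg13 call was lost without control replicate 3 (0.90, edgeR adjusted p = 0.0637). Firre, the highest of this list, was at 133.2, 120.6 and 116.6 CPM against 149.5, 115.2 and 136.6 CPM.

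Of 17 genes in and beside the imprinted domain that Kcnq1ot1 controls, 12 were tested, 8 were called higher and 1 lower (75% called, against 29.2% of all tested genes), with a median of 0.70 against 0.04. That share is a description, since the list was written with earlier results of these data known. Cd81, a tetraspanin of the cell surface, rose from 524.5, 498.7 and 481.5 CPM to 992.6, 895.4 and 906.4 CPM (log2 fold change 0.89, SE 0.09, edgeR adjusted p = 9.28e-05). Kcnq1, the potassium channel gene antisense to Kcnq1ot1, rose from 121.2, 113.1 and 118.9 CPM to 247.5, 213.1 and 159 CPM (0.81, SE 0.15, edgeR adjusted p = 0.0018). Slc22a18 (log2 fold change 0.77, SE 0.16) and Dhcr7, the last enzyme of cholesterol synthesis, rose as well, Dhcr7 from 25.8, 17.8 and 17.97 CPM to 48.2, 40.9 and 33.8 CPM. Cdkn1c, the CDK inhibitor p57 and a known target of silencing by Kcnq1ot1, was the only gene of the list called lower (-0.95, SE 0.24, edgeR adjusted p = 0.011), from 13.4, 15 and 15.7 CPM to 6.89, 7.08 and 8.88 CPM. Its call was lost with DESeq2 (adjusted p = 0.0579) and without control replicate 3 (-0.90, edgeR adjusted p = 0.0534), and with the replicate block and GC offset 2 genes of the list were called lower. Phlda2, another such target, was at 28.1, 27.2 and 19.4 CPM against 16.2, 22.8 and 18.2 CPM and did not pass (-0.38, SE 0.21, edgeR adjusted p = 0.197).

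**Figure D4:**
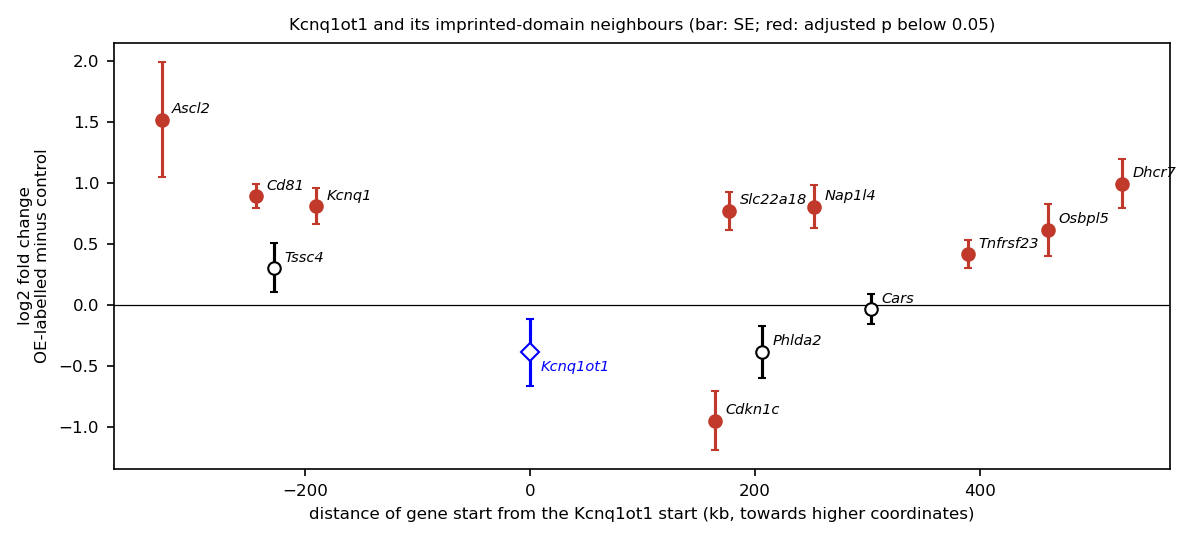
Log2 fold change with SE (y axis) of Kcnq1ot1 (blue diamond) and the 12 tested neighbours against the distance of their starts from the Kcnq1ot1 start (x axis, kb). Higher genes lie on both sides, from Ascl2 to Dhcr7, and Cdkn1c is the only neighbour called lower.

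The mRNAs of proteins that partner the nuclear RNAs were called in both directions, and protein levels were not measured. Of 25 paraspeckle proteins, 6 were called higher and 4 lower (40% called, median -0.10). Hnrnpk rose by 0.61 (SE 0.10, edgeR adjusted p = 0.0012) and Ss18l1 by 0.91 (SE 0.25). Hnrnpm fell by 0.52 (SE 0.11, edgeR adjusted p = 0.00401), Taf15 by 0.63 (SE 0.15), Cpsf7 by 0.55 (SE 0.18) and Sfpq, a core paraspeckle protein that binds Neat1, by 0.31 (SE 0.10, edgeR adjusted p = 0.0276). An offset for GC content ended the Sfpq call (-0.07, edgeR adjusted p = 0.703), which also did not hold without any control library or OE-labelled replicate 2 (adjusted p up to 0.119). The Cpsf7 call was lost in 7 alternatives, among them without the same libraries (adjusted p up to 0.114), and that of Ss18l1 in 4, among them without control replicate 3 or OE-labelled replicate 2 (adjusted p up to 0.088). Nono, the partner of Sfpq, was at 92.6, 102.7 and 92.6 CPM against 91.6, 73.5 and 76.5 CPM (-0.25, SE 0.13, edgeR adjusted p = 0.15). Of 25 tested proteins of nuclear speckles and of RNase P or related end processing, 2 were called higher and 6 lower (32% called, median -0.08). Rnps1, a splicing activator, fell by 1.01 (SE 0.16, edgeR adjusted p = 0.000782), Pnn by 0.66 (SE 0.13) and Pop1, an RNase P subunit, by 0.92 (SE 0.23), whereas Srsf6 rose by 0.62 (SE 0.14). The Pop1 call was lost without control replicate 1 (edgeR adjusted p = 0.0542) or 3 (edgeR adjusted p = 0.053). Srrm2, a scaffold of speckles and the highest of them, had an estimate of -0.26 (SE 0.11, edgeR adjusted p = 0.0841).

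The mRNAs of snoRNA-binding and snoRNP assembly proteins split evenly, 5 higher and 5 lower of 19 tested (52.6% called, median 0.07). Among the core proteins of box C/D snoRNPs, Fbl, the methyltransferase, rose by 0.62 (SE 0.18) and Snu13 by 1.05 (SE 0.20), Nop56 fell by 0.56 (SE 0.13), and Nop58 did not pass (0.18, SE 0.10, edgeR adjusted p = 0.2). Of the H/ACA proteins, Nop10 rose by 0.37 (SE 0.12) and Gar1 fell by 0.76 (SE 0.25). For Gar1, OE-labelled replicate 1 was the lowest (23.9 CPM, against 57.4 and 53.3 CPM in replicates 2 and 3). Assembly factors Pih1d1 (1.37, SE 0.21) and Ruvbl2 (1.01, SE 0.19) rose and Rpap3 fell by 0.81 (SE 0.16), as did Nolc1 (-0.45) and Tcof1 (-0.37). Omission of single libraries, among other alternatives, ended several of these calls. The Nop10 call was lost without control replicate 1 or 2 or OE-labelled replicate 2 or 3 (edgeR adjusted p up to 0.19). That of Fbl was lost without control replicate 2 or 3 or OE-labelled replicate 2 (up to 0.101). Those of Gar1 and Tcof1 were lost when any control library was left out (up to 0.156 and 0.146). That of Nolc1 was lost without control replicate 1 or 3 or OE-labelled replicate 2 (up to 0.104). With the GC offset Fbl was at 0.41 (edgeR adjusted p = 0.112).

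Protein-coding genes that host snoRNAs, many of them ribosomal protein and translation factor genes, were called higher in 13 and lower in 2 of 33 tested cases (45.5% called, median 0.21). Eef2, the elongation factor that moves the ribosome along, rose from 2655, 2600 and 2648 CPM to 4875, 3865 and 3771 CPM (0.66, SE 0.11, edgeR adjusted p = 0.000803). Rpl3 rose by 0.56 (SE 0.09) and Rpl10 by 0.77 (SE 0.13); processed copies of ribosomal protein genes can share their reads, so these are uncertain. Prrc2a fell by 0.91 (SE 0.13, edgeR adjusted p = 0.000499) and Nop56 as given above. Eif4a2 was, like Snhg8, far lower in OE-labelled replicate 1 (27.6 CPM) than in replicates 2 and 3 (94.1 and 142.6 CPM) or in control libraries (97.2, 110.3 and 100.8 CPM). It was chosen after its values were seen.

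Of 19 tested factors of nonsense-mediated decay and the exon junction complex, 2 were called higher and 2 lower (21.1% called, median 0.03). Smg1, the kinase that phosphorylates UPF1, fell by 1.02 (SE 0.16, edgeR adjusted p = 0.000721), from 87.1, 84 and 71.4 CPM to 42.5, 31.5 and 46.1 CPM. Rnps1 belongs to this list as well. Rbm8a, a core protein of the junction complex and the highest of the list, rose by 0.40 (SE 0.11, edgeR adjusted p = 0.015), and Upf1, the helicase, by 0.39 (SE 0.13, edgeR adjusted p = 0.0447). The Upf1 call was lost in 12 of the 20 alternatives (adjusted p up to 0.481). Among these were the GC offset (log2 fold change 0.15) and the omission of any control library or of OE-labelled replicate 2. Without OE-labelled replicate 1 the call was lost too (log2 fold change 0.27, edgeR adjusted p = 0.138). The Rbm8a call was lost in 5, among them without any control library or OE-labelled replicate 2 (adjusted p up to 0.0794).

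**Figure D5:**
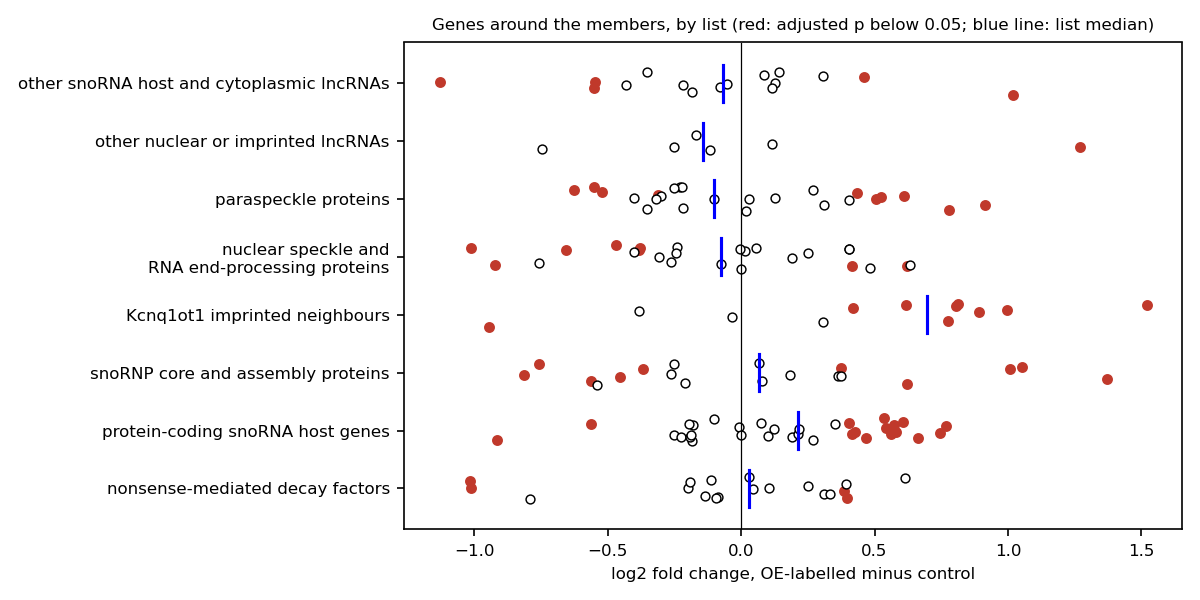
Log2 fold change (x axis, OE-labelled minus control) of each tested gene in 8 lists, filled red where the adjusted p was below 0.05, with the list median as a blue line. The neighbours of Kcnq1ot1 have the median furthest from 0 (0.70), and the other lists lie between -0.14 and 0.21.

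The letters GGAC, the core of the sequence in which m6A is placed, occurred at 1.3 to 5.87 per kb in the longest transcript of the 10 genes, against a median of 3.98 per kb over tested genes. The highest density was in Gas5 (15 copies) and the lowest in Snhg12 (2 copies). Snhg3, the gene that rose, had 1.72 per kb, and Malat1, the gene that fell, 2.29 per kb. A match in these letters is not a measured modification or binding site.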

How the data were processed

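Values in the table the authors deposited are estimated counts, not normalized (expected counts, 3.09% of the values above 0 fractional); these were rounded to whole numbers for the count tests, which had been planned for counts. Per the submitters' processing notes, STAR and HTSeq were among the tools and mm10/GRCm38 was the build; annotation, strand and handling of multi-mapping reads and molecular identifiers are not given in the sources used here. Per the labels' protocols, libraries were QuantSeq 3′ libraries from total RNA. Groups came from sample titles, and columns from library names.

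All 10687 genes kept by filterByExpr were fitted with edgeR 4.0.16 (R 4.3.3; TMM scaling, quasi-likelihood test, no covariates; Benjamini-Hochberg adjustment). CPM is the deposited count over the TMM-scaled library size; SE is the estimate over the root of F. Alternatives used DESeq2 1.42.0 and limma 3.58.1. Gene types and positions came from GENCODE M21 (99.3% of identifiers matched). Named genes were the 10 members, up to 4 called genes with the smallest p and the highest gene of each list, and the 3 genes most like Malat1 and Gas5; others were named after their values were seen. A gene that this rule names is not reported here. Members and lists were chosen with earlier results of these data known. On counts simulated for this comparison (10687 genes, 200 changed by 1 log2 unit), 73.5% of changed genes were recovered and 3.29% of calls were unchanged genes. The simulation gave both groups the same dispersion and changed far fewer genes than the 3118 called. In the data the OE-labelled libraries were more spread out (median CV 15.9% against 10.5% in control over all tested genes), so these rates need not hold for the calls made here. Poisson intervals and the floor cover counting error only, while confidence intervals of fold changes come from the edgeR SE and cover the spread between libraries.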

Additional observations from a re-analysis of the deposited data

How the results depend on the processing

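Over the 20 alternatives, 172 of 200 values for the 10 genes kept their direction and side of the threshold, 5 no longer passed, 19 newly passed and 4 turned sign. Gas5 turned to 0.0547 with the GC offset and 0.047 with the replicate block and GC offset, and Epb41l4aos to -0.00886 and -0.0146. Of the other genes named, none called in the report turned sign; Zfas1 turned to 0.0585 and 0.0533 under these settings and Eif4a2 to 0.0138 with the GC offset. Leaving out 1 library gave Zfas1 -0.145 to 0.0205, Firre -0.0289 to 0.185, Eif4a2 -0.749 to 0.142 and Epb41l4a -0.0397 to 0.266, the turned signs all without OE-labelled replicate 1. The cause was not tested. Against 1 of the 10 genes called lower, the number was 2 with limma-voom, 4 with no count filter, 0 with the GC offset, 0 at an adjusted p below 0.01, and 4 with limma-voom and a variance per group, an alternative chosen, like unrounded counts, after seeing the data. Over all genes, the DESeq2 test called 1996 (1054 higher), and a threshold of 0.01 left 1578 (944 higher, 634 lower), against 3118 (1765 higher, 1353 lower). Leaving out 1 library at a time gave 1748 to 3532 calls, 1033 to 1959 higher and 715 to 1731 lower, with 0 to 5 of the 10 genes lower and 1 higher. Same-numbered libraries deviated together at correlations of 0.14, 0.039 and 0.16, each library correlating best with its own number, but 1 is not over 0.1, so the numbers were not taken as pairs. The replicate block called 3112 genes and 3 of the 10 genes lower (Malat1, Snhg1 at -0.39 and Snhg6 at -1.36); with the block and GC offset 2 were lower, Snhg6 and Snhg8, and Malat1 and Snhg1 were not called. Numbers called higher and lower in the lists ranged, over the alternatives, from 1 to 2 and 1 to 4 for other host lncRNAs, 0 to 1 and 0 to 1 for other nuclear lncRNAs, 1 to 7 and 2 to 6 for paraspeckle proteins, 1 to 3 and 2 to 8 for speckle proteins, 5 to 9 and 0 to 2 for the Kcnq1ot1 neighbours, 3 to 5 and 2 to 6 for snoRNP proteins, 7 to 15 and 2 to 7 for coding hosts, and 0 to 4 and 2 to 3 for decay factors. Snhg6 and Kcnq1ot1 had at most 89 and 99 counts in a library, which limits their precision.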
